A study of Arabis alpina with 19 samples.

Results

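Transcripts of the lateral stem of Arabis alpina, a perennial of the cabbage family, were searched for those abundant at 4 and 5 weeks and low in every later stem sample. All plants carried perpetual flowering 1-1 (pep1-1), the genotype shared by every group, and no wild-type plants were among the libraries. The 6 groups were I_PZ, II_PZ, III_PZ and IV_PZ, the perennial-zone internode at 4, 5, 7 and 30 weeks, and IV_AZ_si and IV_AZ_if, which came from the annual zone at 30 weeks. IV_AZ_si was the short internode of that zone and IV_AZ_if the internode near the inflorescence. IV_AZ_si had 4 libraries and the other groups 3 each, 19 in all, and each replicate pooled 12 plants grown in long days. Library totals ran from 21032841 to 27999048 estimated counts.

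In Arabis alpina the product of PEP1 represses flowering, and plants that lack it flower without cold. The lower, perennial part of a lateral stem keeps living buds and thickens through a cambium that forms wood and bast, while the annual part bears the inflorescence and dies after seed set. Young internodes of flowering plants in general still elongate and lay down their primary tissues, and older ones carry more secondary tissue. The files pair no gene names with their identifiers, so targets are given by identifier, without a role, and the tissue labels could not be set against marker genes.

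Members were chosen by measured values: a target was taken when its TPM (a level scaled by transcript length and to a fixed library total) met a rule on the 6 group means. The means were placed on the log2(TPM + 1) scale and sorted, the widest step between neighbours had to be at least 1, exactly I_PZ and II_PZ had to lie above that step, and both had to reach 5 TPM. The I_PZ mean came from replicates 1 and 2. Of 30158 targets, 166 met the rule, and the 150 with the widest step, 0.497% of the targets, are described here. The same rule with IV_AZ_if also above the step held for 331 targets, with III_PZ also above it for 173 and with both annual-zone groups also above it for 210. With IV_PZ as the single later group above the step there were 6 targets, and with IV_AZ_si as the single one there were 2.

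Because the rule used all 6 means, the height of the young groups over the later ones is a description and carries no test. The step had a median of 2.01 on the log2 scale and a maximum of 6.76. It was at least 2 in 75 members, at least 3 in 34 and at least 4 in 12. The last member kept, Aa_G506870.h1, had a step of 1.08, with means of 11.1 TPM in I_PZ and 5.83 in II_PZ and at most 2.22 TPM, in III_PZ, in the later groups. The first target left out, Aa_G114800.h1, had a step of 1.07, with 82.6 and 59.9 TPM in the young groups and 28.0 TPM in IV_AZ_if, its highest later group. These neighbours differed little in the step and much in level.

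A pair of young libraries stood apart. Among 167 targets with at most 0.1 TPM in I_PZ replicate 1 and at least 10 TPM in every III_PZ library, the median level was 0 TPM in I_PZ replicate 2 and 4.10 TPM in I_PZ replicate 3, or 11.4% of the III_PZ mean. The same targets had medians of 0.0937, 0 and 0.244 TPM in II_PZ replicates 1, 2 and 3. I_PZ replicate 3 thus held transcripts typical of 7 weeks, and the rule left it out of the I_PZ mean. For the 150 members this library was close to its group: its median level was 96.6% of the mean of replicates 1 and 2, and 10 members were below 50% of it. It lay above the highest of the 13 later libraries in 146 of 150 members, against 14.2% of all 30158 targets. The rule did not use this library, but it used the 13 later ones, so it favours this count too.

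II_PZ replicate 3 differed from its group in the members themselves. It was the lowest II_PZ library in 128 of 150 members (85.3%), against 48.5% of 15548 targets. Those targets had a mean of at least 5 TPM over the 5 young libraries that the rule used. The median level of II_PZ replicate 3 was 62.3% of the mean of II_PZ replicates 1 and 2, against 95.1% over those targets. In 41 members it was below 50%. II_PZ replicate 2 was the highest of the 3 in 113 members (75.3%), against 45.2% of the targets. The median coefficient of variation of the members in II_PZ was 30.4%, against 10.8% for the targets, while in I_PZ it was 7.54% against 6.72%. The members therefore spread more between the 5-week libraries than between the 4-week libraries.

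**Figure D1:**
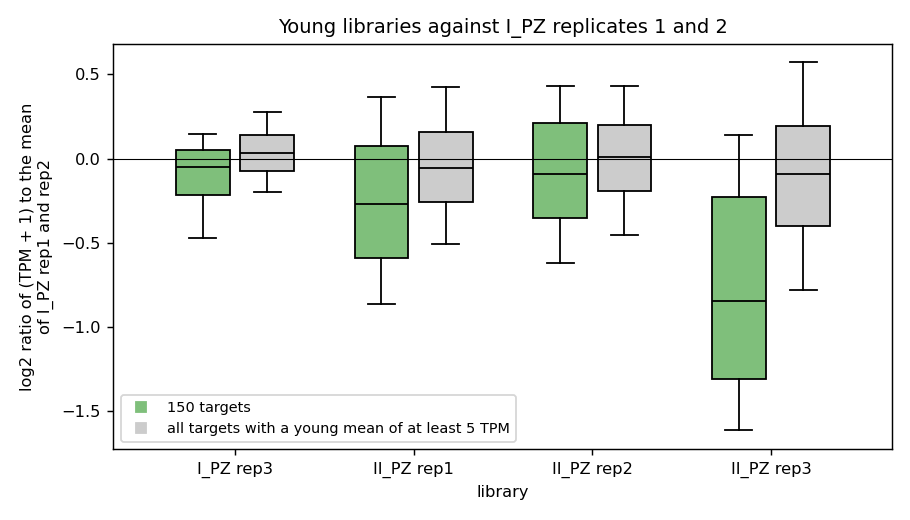
Log2 ratio of (TPM + 1) in 4 young libraries to the mean of I_PZ replicates 1 and 2. Green boxes show the 150 members. Grey boxes show the 15548 targets with a mean of at least 5 TPM over the 5 young libraries that the rule used. Boxes span the quartiles with a line at the median, and whiskers run from the 10th to the 90th percentile. The members' median was -0.85 in II_PZ replicate 3, against -0.09 over the 15548 targets.

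Summed over the 150 members, the level was 15424, 15336 and 14371 TPM in the I_PZ libraries and 14111, 15241 and 9674 TPM in the II_PZ libraries. It was 1075, 1010 and 984 TPM in III_PZ and 724, 786 and 711 TPM in IV_PZ. In the annual zone it was 859, 836, 802 and 833 TPM in IV_AZ_si and 1239, 1596 and 1577 TPM in IV_AZ_if. All 6 young libraries lay above all 13 later ones, which the rule favours, and among the later groups every IV_AZ_if library lay above every library of the others. The lowest young library, II_PZ replicate 3, still held several times the sum of the highest later library. In these bulk samples, fewer cells of a type and less RNA per cell cannot be told apart.

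The group means of that sum were 15043 ± 584 TPM in I_PZ (SD, n = 3) and 15380 ± 62.2 without replicate 3 (n = 2). They were 13009 ± 2943 TPM in II_PZ, 1023 ± 46.4 in III_PZ, 740 ± 40.1 in IV_PZ and 1471 ± 201 in IV_AZ_if (n = 3 each), and 832 ± 23.2 in IV_AZ_si (n = 4). The means of I_PZ and II_PZ differed by less than the SD of II_PZ. The members' sum was 1.54% of all TPM in I_PZ without replicate 3 and 0.0740% in IV_PZ.

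**Figure D2:**
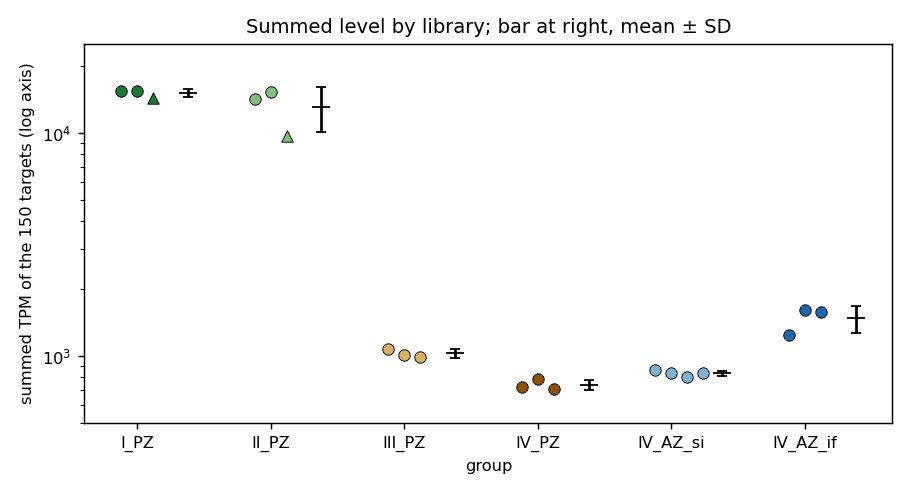
Summed TPM of the 150 members in each library (points, log axis) with the mean ± SD of each group (bars at right). Triangles mark replicate 3 of I_PZ, which the rule did not use, and replicate 3 of II_PZ. Young libraries sit between 9674 and 15424 TPM and later libraries between 711 and 1596 TPM.

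Few members carried much of the sum. The 10 members of highest level made up 55.7% of it in I_PZ and 59.3% in II_PZ, and the highest 3 made up 29.4 and 32.5%. Group means ranged from 5.31 to 1888 TPM in I_PZ, with a median of 23.9 TPM and 29 members at 100 TPM or more. In II_PZ they ranged from 5.26 to 2408 TPM, with a median of 19.2 TPM and 25 members at 100 TPM or more.

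The highest member by level was Aa_G64610.h1, with a coding length of 243 bases. Its estimated counts in II_PZ were 12709, against 74188 for Aa_G156120.h1, so its rank rests on the scaling by length. Its TPM was 1879, 1896 and 1787 in I_PZ and 2728, 2876 and 1621 in II_PZ. It was 33.9, 12.0 and 21.5 in III_PZ, 0 in every IV_PZ library, 13.5, 6.42, 17.5 and 11.5 in IV_AZ_si and 81.1, 146 and 65.6 in IV_AZ_if. All 3 IV_AZ_if libraries lay above all other later libraries.

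Aa_G156120.h1 came next, at 1415, 1507 and 1499 TPM in I_PZ and 1134, 1292 and 532 TPM in II_PZ. It was between 1.62 and 5.51 TPM in III_PZ, at most 0.387 TPM in IV_PZ and at most 2.07 TPM in IV_AZ_si, and 31.6, 34.3 and 32.2 TPM in IV_AZ_if. Its estimated counts were not whole numbers, the mark of reads divided among similar targets, so its level is uncertain. Aa_G51200.h1 had 1140, 1197 and 1021 TPM in I_PZ and 574, 633 and 391 TPM in II_PZ. Its later levels were 36.3, 25.8 and 22.8 TPM in III_PZ, 0, 0 and 1.95 TPM in IV_PZ, and 13.9, 24.7 and 38.7 TPM in IV_AZ_if. In IV_AZ_si it was 34.3, 4.90, 0.317 and 5.86 TPM, so 1 library lay far above the other 3.

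The widest step belonged to Aa_G419700.h1, with 733, 845 and 793 TPM in I_PZ and 540, 582 and 406 TPM in II_PZ. Its highest later library was IV_AZ_if replicate 3 at 6.16 TPM, and every library of III_PZ, IV_PZ and IV_AZ_si was at or under 2.03 TPM. The second widest was Aa_G68870.h1, at 179, 208 and 199 TPM in I_PZ and 111, 89.3 and 66.5 TPM in II_PZ. It was 0 in all 4 IV_AZ_si libraries and at most 1.67 TPM elsewhere among the later libraries, and its counts included divided reads. The third, Aa_G49350.h1, had 195, 225 and 219 TPM in I_PZ and 103, 167 and 30.5 TPM in II_PZ, against at most 2.21 TPM later. All 3 members had their I_PZ libraries above all their II_PZ libraries.

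**Figure D3:**
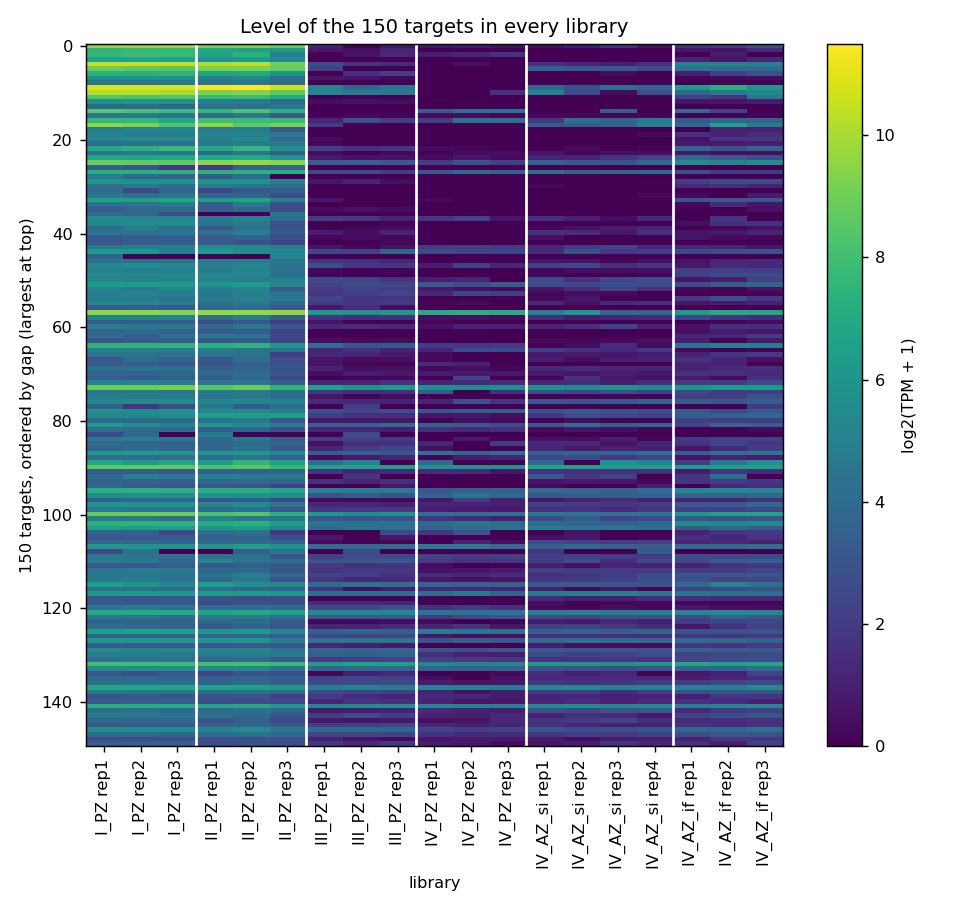
Level of each member, log2(TPM + 1), in the 19 libraries, with members ordered from the widest step at the top and white lines between groups. The 6 young libraries on the left are bright for most members, and the IV_PZ columns hold the most members at 0.

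At single libraries the separation was near complete but not whole. In 142 of 150 members all 5 young libraries that the rule used lay above all 13 later libraries, against 4.15% of the 30158 targets, a count that the rule itself favours. The 8 members with overlapping libraries were all short, from 117 to 243 bases. The members had a median coding length of 777 bases, against 1002 bases for the 15548 targets, and 22 (14.7%) were shorter than 300 bases, against 11.8%. Of the 150, 117 had at least 100 counts in each of the 5 young libraries and 141 had at least 10. Divided reads occurred in 23 members (15.3%) and in 18.7% of the targets. Identifier numbers run in steps of 10, and 3 pairs of members were consecutive: Aa_G156110.h1 with Aa_G156120.h1, Aa_G240270.h1 with Aa_G240280.h1, and Aa_G541240.h1 with Aa_G541250.h1.

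The members were low after 5 weeks rather than absent. The highest of the 4 later group means was under 1 TPM in 26 members, from 1 to under 5 TPM in 68 and at least 5 TPM in 56. A label that calls these targets specific to the first 5 weeks therefore holds in the relative sense of the rule only. No count was found in any library for 16 members in III_PZ, 44 in IV_PZ, 25 in IV_AZ_si and 10 in IV_AZ_if, where the limit is 3 counts over a group's libraries. Zero in all 13 later libraries was seen in 6 members. Of these, 5 had between 11 and 77 counts in the 6 young libraries together. The sixth, Aa_G73230.h1, had 4831 counts, at 13.4, 15.2 and 12.2 TPM in I_PZ and 19.9, 16.5 and 21.7 TPM in II_PZ.

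Relative to the lower of the I_PZ and II_PZ means, the median level left was 2.55% in IV_PZ, 7.85% in IV_AZ_si, 8.86% in III_PZ and 14.4% in IV_AZ_if. The largest share left was 44.8%, in III_PZ, and the rule's minimum step caps this share. IV_AZ_if was the highest later group in 76 of the 144 members detected there (52.8%), against 28.3% of 15538 targets. IV_PZ was the highest in 17 (11.8%), against 31.7%, III_PZ in 33 (22.9%), against 23.7%, and IV_AZ_si in 18 (12.5%), against 16.3%. The rule used these later means and the targets were not chosen by it, so the order is read as a description. A second step of at least 1 on the log2 scale occurred in 63 members, and in 22 of them it set IV_AZ_if alone above the other 3 later groups.

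**Figure D4:**
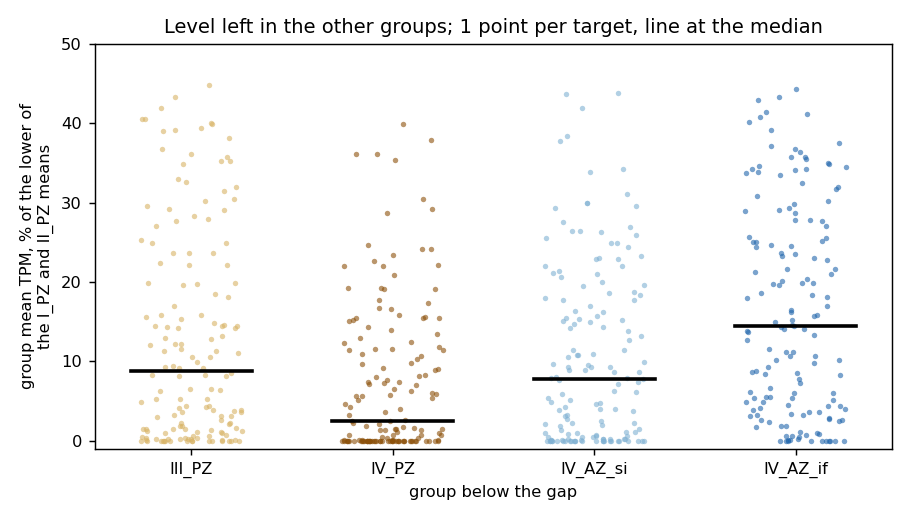
Group mean of each member as a percent of the lower of its I_PZ and II_PZ means, with 1 point per member and a line at the median. The medians are 8.86% in III_PZ, 2.55% in IV_PZ, 7.85% in IV_AZ_si and 14.4% in IV_AZ_if.

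Differences within the young groups and within the later groups were tested with edgeR's quasi-likelihood test on the estimated counts of all 19 libraries, with p-values adjusted by Benjamini-Hochberg over 23528 targets and a threshold of 0.05. Of the 150 members, 143 passed the filter on low counts. The other 7 were 117 to 177 bases long and had at most 9 counts in any library. Of the 143, 22 passed through the young libraries alone, where the rule made them high, and 121 also passed within the 13 later libraries. Those 121 were chosen after seeing the data, and shares over all 23528 tested targets are given in brackets in the same order. The 23528 were filtered over all 19 libraries, so they are not a matched background for the 121. In IV_PZ against III_PZ, 61 of the 121 were lower and 15 higher (29.3% and 27.3%). In IV_AZ_if against IV_PZ, 85 were higher and 8 lower (36.5% and 33.7%). In IV_AZ_si against IV_PZ, 55 were higher and 12 lower (31.4% and 25.7%). In IV_AZ_si against IV_AZ_if, 67 were lower and 12 higher (23.9% and 24.8%). The 3 comparisons with IV_PZ share its libraries, and each annual-zone group enters 2 of the comparisons, so they are not independent of each other. The rule also used the later means. It kept each step between neighbouring means no wider than the widest, so the members' counts in these comparisons are read as a description.

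The difference between 4 and 5 weeks was bounded by the rule, which placed both groups above the widest step, so the members' counts are read as a description. At 5 weeks 3 members were higher and 11 lower (2.10% and 7.69% of 143), where 9.33% and 6.78% of all tested targets were higher and lower. Libraries of the groups did not overlap in 70 members (in 36.7% of all targets), and 16.1% of all targets were called in either direction. The members' median log2 difference was -0.29, against 0.00 over all targets, with 99 members below 0 and 44 above. Scaling the libraries as TPM does gave 2 higher and 17 lower members, where 6.44% of all targets were higher and 9.56% lower. The lower calls varied with the libraries kept, and those of all targets varied too. Without II_PZ replicate 3 there were 2 lower members, and 3.25% of all targets were lower. Without I_PZ replicate 1 or replicate 2 there were 3, with 4.39% and 4.05% of all targets lower. Leaving out I_PZ replicate 3 or II_PZ replicate 1 gave 7, with 5.99% and 5.88% of all targets lower, and leaving out II_PZ replicate 2 gave 19, with 6.32%. There was 1 higher member without I_PZ replicate 2, I_PZ replicate 3 or II_PZ replicate 3, where 5.44%, 8.29% and 4.84% of all targets were higher. On the log2(TPM + 1) scale, the members' median ratio to I_PZ replicates 1 and 2 was -0.85 in II_PZ replicate 3. It was -0.19 in the mean of II_PZ replicates 1 and 2. Over the 15548 targets of at least 5 TPM in the young libraries, these medians were -0.09 and -0.02.

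Aa_G380650.h1 rose from 44.0, 43.5 and 50.8 TPM in I_PZ to 88.3, 80.2 and 87.3 TPM in II_PZ, with no overlap between the groups. Its log2 fold change was 0.97 ± 0.19 (SE), with an edgeR adjusted p of 0.00239 and 6.41e-06 to 0.0175 under the alternatives. Aa_G541250.h1 rose from 486, 418 and 408 TPM to 688, 807 and 696 TPM. Its log2 fold change was 0.82 ± 0.23 (edgeR adjusted p = 0.0219), and the adjusted p passed 0.05 without I_PZ replicate 2 (0.0768), I_PZ replicate 3 (0.0691), II_PZ replicate 2 (0.0564) or II_PZ replicate 3 (0.0596). The third higher call was Aa_G73230.h1, one of the 6 members at 0 in all later libraries, with a log2 fold change of 0.59 (edgeR adjusted p = 0.0457). Its adjusted p was 0.05 or more in 9 of 12 alternatives, with a range of 0.0190 to 0.180, and it is named because the count is small.

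Aa_G576610.h1 fell from 58.0, 65.8 and 57.8 TPM in I_PZ to 32.5, 26.8 and 15.9 TPM in II_PZ. Its log2 fold change was -1.19 ± 0.20 (edgeR adjusted p = 0.00139, at most 0.0107 under the alternatives), and its counts included divided reads. Aa_G68870.h1, the member with the second widest step, had a log2 fold change of -1.06 ± 0.25 (edgeR adjusted p = 0.00912), with 0.0515 without II_PZ replicate 3 and 0.0901 in DESeq2. The other 5 members of widest step or highest level were not called. Their log2 differences were -0.55 for Aa_G419700.h1 (edgeR adjusted p = 0.105), -1.02 for Aa_G49350.h1 (0.133, and 0.0355 without II_PZ replicate 2), 0.45 for Aa_G64610.h1 (0.281), -0.51 for Aa_G156120.h1 (0.323) and -0.996 for Aa_G51200.h1 (0.159).

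The perennial zone was compared between 7 and 30 weeks. In IV_PZ, 62 of 143 tested members were lower than in III_PZ and 16 were higher (43.4% and 11.2%), while 65 were not called, where 29.3% and 27.3% of all tested targets were lower and higher. Called in either direction were 56.5% of all targets, and the libraries did not overlap in 74 members and in 63.8% of targets. The median log2 difference was -1.16 for the members, or -0.72 with targets absent from 1 group set at their bound, against 0.00 over all targets. Of the lower members, 16 had no count in IV_PZ. Many levels were low, and 51 of the tested members were under 1 TPM in both groups, 16 of them called. Of all 150 members, 34 had a mean of at least 5 TPM in III_PZ and 26 in IV_PZ.

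The lower members of widest difference were Aa_G29490.h1 and Aa_G64610.h1, both with no count in IV_PZ. Aa_G29490.h1 had 1.36, 0.935 and 0.702 TPM in III_PZ and IV_PZ was lower by 42.8-fold or more (edgeR adjusted p = 1.05e-06), where the bound sets 3 counts over the 3 libraries. For Aa_G64610.h1, with 12.0 to 33.9 TPM in III_PZ, the bound was 42.1-fold (edgeR adjusted p = 4.90e-05). Without 1 IV_PZ library the bounds were at least 27.9-fold and 27.4-fold, as fewer counts then stand behind the 0. Among the 16 higher members, Aa_G68230.h1 rose from 0.552, 0.124 and 0.486 TPM in III_PZ to 2.94, 3.62 and 2.77 TPM in IV_PZ. The fitted log2 fold change was 3.05 ± 0.47 (edgeR adjusted p = 3.00e-05). Aa_G409780.h1, of 123 bases, had 11 counts in IV_PZ and 0 in III_PZ and was at least 3.43-fold higher (edgeR adjusted p = 0.00851), a bound that fell to 2.20 without III_PZ replicate 3. This target passed the filter through its young libraries alone and would not have been tested on the later ones.

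At 30 weeks the internode near the inflorescence was compared with the perennial zone. In IV_AZ_if, 97 of 143 tested members were higher than in IV_PZ and 8 were lower (67.8% and 5.59%), where 36.5% and 33.7% of all tested targets were higher and lower. In either direction 70.2% of all targets were called, and 98 members and 71.5% of targets had no overlap between libraries. The members' median log2 difference was 2.12, or 1.91 with absent targets at their bound, against 0.00 over all targets. No count was found in IV_PZ for 32 of the 97 higher members. In 88 of the 97 the fitted difference was over 2-fold, and 26 of the tested members were under 1 TPM in both groups, 16 of them called. Against the lower of their means at 4 and 5 weeks the IV_AZ_if means reached at most 44.3%, a share that the rule's minimum step caps.

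Aa_G259500.h1 had 0 TPM in all IV_PZ libraries and 13.2, 92.9 and 25.2 TPM in IV_AZ_if, against 757, 618 and 322 TPM in I_PZ and 736, 387 and 555 TPM in II_PZ. It was at least 1174-fold higher in IV_AZ_if than in IV_PZ (edgeR adjusted p = 2.13e-05), or at least 480-fold without IV_AZ_if replicate 2. Aa_G303880.h1 was likewise at 0 in IV_PZ, with 3.06, 3.04 and 6.30 TPM in IV_AZ_if. It was at least 315-fold higher (edgeR adjusted p = 1.68e-08), and at least 205-fold without IV_PZ replicate 2. Among the 8 lower members, Aa_G104730.h1 had 1.48, 4.44 and 3.32 TPM in IV_PZ and 0, 0 and 0.119 TPM in IV_AZ_if. The log2 fold change of Aa_G104730.h1 was -6.16 ± 0.72 (edgeR adjusted p = 6.25e-07), or -5.53 without IV_AZ_if replicate 2. Without IV_AZ_if replicate 3, which held all its counts there, the target was lower by 88.8-fold or more. Aa_G365890.h1 had 1.30, 4.84 and 4.91 TPM in IV_PZ and 0.236, 0.0280 and 0.102 TPM in IV_AZ_if, with a log2 fold change of -4.82 ± 0.60 (edgeR adjusted p = 1.42e-06), or -5.68 without IV_AZ_if replicate 1.

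The short internode of the annual zone was set against the same perennial zone. In IV_AZ_si, 58 of 143 tested members were higher than in IV_PZ and 15 were lower (40.6% and 10.5%), where 31.4% and 25.7% of all tested targets were higher and lower. Of all targets 57.1% were called in either direction, and no overlap between libraries was seen in 64 members and in 57.5% of targets. The members' median log2 difference was 0.61, or 0.42 with absent targets at their bound, against 0.04 over all targets. No count was found in IV_PZ for 15 of the higher members. Of the tested members, 51 were under 1 TPM in both groups, 16 of them called.

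Aa_G419950.h1, at 0 in all III_PZ and IV_PZ libraries, had 1.67, 0.947, 0.850 and 1.74 TPM in IV_AZ_si and 1.74, 1.66 and 1.35 TPM in IV_AZ_if. Its young levels were 7.19, 6.65 and 7.25 TPM in I_PZ and 6.33, 5.28 and 5.43 TPM in II_PZ. It was at least 63.1-fold higher in IV_AZ_si than in IV_PZ (edgeR adjusted p = 5.02e-08), and at least 41.2-fold without IV_PZ replicate 2. Aa_G259500.h1 had 9.32, 8.62, 11.1 and 31.1 TPM in IV_AZ_si, a bound of 358-fold over IV_PZ (edgeR adjusted p = 0.000310), or 219-fold without IV_AZ_si replicate 4. In both members the annual-zone libraries were all above the IV_PZ libraries.

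Among the 15 lower members, Aa_G104730.h1 had 0.149, 0.354, 0.206 and 0 TPM in IV_AZ_si. Its log2 fold change against IV_PZ was -4.17 ± 0.50 (edgeR adjusted p = 1.53e-06), or -4.75 without IV_AZ_si replicate 2. Aa_G49350.h1, with 0.904, 1.34 and 2.21 TPM in IV_PZ, or 10 counts in all, and none in IV_AZ_si, was lower there by 4.05-fold or more (edgeR adjusted p = 0.0338). That call was lost without IV_PZ replicate 2 or 3 or without any single IV_AZ_si library, where the adjusted p ran from 0.0553 to 0.0955, and it was 0.00181 in DESeq2. Aa_G49350.h1 too passed the filter through its young libraries alone.

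The annual-zone internodes were compared with each other. In IV_AZ_si, 76 of 143 tested members were lower than in IV_AZ_if and 12 were higher (53.1% and 8.39%), while 55 were not called, where 23.9% and 24.8% of all tested targets were lower and higher. Calls in either direction covered 48.6% of all targets, and the libraries of 81 members and of 49.9% of targets did not overlap. The members' median log2 difference was -1.08, or -1.01 with absent targets at their bound, against 0.05 over all targets. Scaling as TPM does shifted the median of all targets to 0.19 and gave 70 lower and 13 higher members. Under that scaling 18.6% of all targets were lower and 33.2% higher. Of the tested members, 27 were under 1 TPM in both groups, 12 of them called. IV_AZ_if replicate 3 was the highest of its group in 78 members, against 30 for replicate 1 and 32 for replicate 2. The same count over all targets was not made, so whether this order is particular to the members was not tested.

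Aa_G393450.h1 had no count in IV_AZ_si and 6.71, 8.94 and 8.00 TPM in IV_AZ_if, so that IV_AZ_si was lower by 260-fold or more (edgeR adjusted p = 1.74e-06). Aa_G176650.h1 was also at 0 in IV_AZ_si, with 0.352, 1.90 and 1.93 TPM in IV_AZ_if, a difference of 73.4-fold or more (edgeR adjusted p = 0.000263). Both were near 0 in III_PZ and IV_PZ, at 0.666 TPM or less, and both had their lowest young level in II_PZ replicate 3, at 32.5 and 6.44 TPM. Of the 12 members with the opposite order, Aa_G365890.h1 had 3.35, 2.24, 1.25 and 2.93 TPM in IV_AZ_si, with a log2 fold change of 4.19 ± 0.61 against IV_AZ_if (edgeR adjusted p = 2.29e-05), or 5.04 without IV_AZ_if replicate 1. Aa_G81640.h1 had 0.580, 1.84, 3.92 and 1.65 TPM in IV_AZ_si and 0.183, 0.0766 and 0.462 TPM in IV_AZ_if. On the log2 scale it was higher by 2.93 ± 0.78 (edgeR adjusted p = 0.00479), or 3.76 without IV_AZ_if replicate 3.

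**Figure D5:**
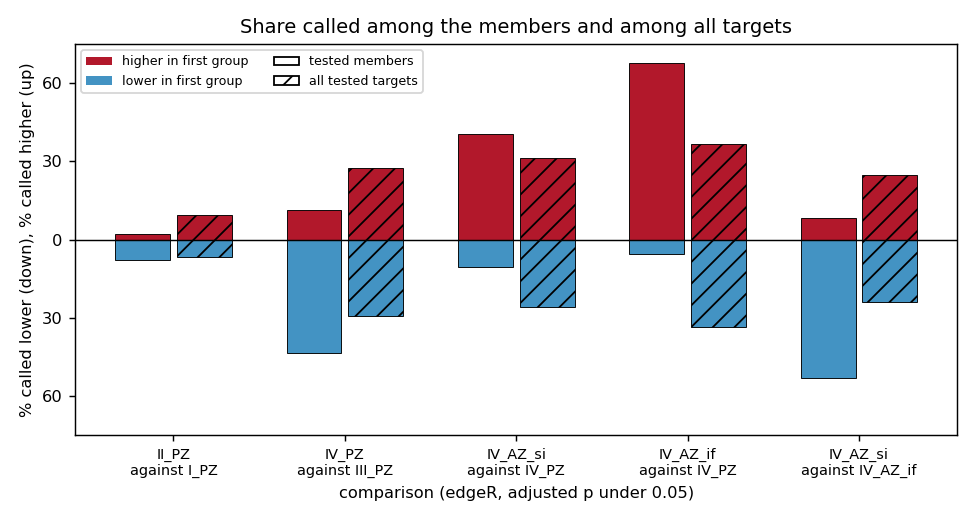
Percent of the 143 tested members (plain bars) and of all 23528 tested targets (hatched bars) that were higher (red, upward) or lower (blue, downward) in the first group of each of 5 comparisons, at an edgeR adjusted p under 0.05. Members stand farthest from the background in IV_AZ_if against IV_PZ, with 67.8% higher against 36.5%. The 143 members include 22 that passed the filter on low counts through the young libraries alone.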

How the data were processed

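Total RNA from stem internodes became stranded TruSeq mRNA libraries, per the labels' protocols. Bcl2fastq and kallisto were used, per the submitters' processing notes; for neither tool is a version, and for the targets no reference or build, given in the sources used here. Each library's deposited file gives, per the file headers, lengths, estimated counts and TPM for 34220 targets, and the deposited series table holds the TPM of 30158 of them. Since 99.5% of lengths divide by 3, they are read as coding lengths. No column of per-sample values was left unmapped.

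The rule was applied to the deposited TPM table. The members and lists were chosen with earlier results of these data known. Estimated counts were rounded and tested with edgeR 4.0.16 in R 4.3.3 (TMM scaling, filterByExpr with a minimum count of 10 and a total of 15, group as the only term, all 19 libraries in 1 quasi-likelihood fit), after the scripts had been tested on simulated data. DESeq2 1.42.0 was an alternative, with other scalings, no filter, a replicate block, single libraries left out and other forms of the rule. Targets without shared reads, all deposited targets and the filter applied within the later libraries were alternatives chosen after seeing the data. A target shares reads where an estimated count is not whole within 0.001. A fold against a group with no count is a bound against 3 counts over that group, and floors cover counting error only.

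Named members were the 3 of widest step, the 3 of highest level, and per comparison and direction the 2 called members of widest fitted difference with no overlap between groups and at least 1 TPM in the higher later group, or 5 TPM in the young groups; Aa_G506870.h1 and Aa_G73230.h1 were added for the edge of the rule and for a small count. The labels call the samples biological replicates of 12 plants, and p-values measure the spread between them. Same-numbered libraries deviated together weakly at most. Correlations of their deviations were 0.04, 0.16 and 0.23 for replicates 1, 2 and 3 between II_PZ and I_PZ. In the other comparisons they ran from -0.06 to 0.06.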

Additional observations from a re-analysis of the deposited data

Results flagged for a closer look

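In IV_AZ_si, 3 of the named members had 1 library far from the other 3, by the gap to the nearest library as a share of the group's range. Only the members' sum and the named members detected in IV_AZ_si were checked, and not the rest of the 150. For values with a normal spread, chance alone gives about 1 such group in 20. That rate need not hold for TPM near the count floor, where a member detected in a single library has a share of 1. For Aa_G259500.h1 the share was 0.889, with 9.32, 8.62, 11.1 and 31.1 TPM. For Aa_G51200.h1 it was 0.837, with 34.3, 4.90, 0.317 and 5.86 TPM. For Aa_G409780.h1, a target of 123 bases, it was 1, with 9.75 TPM in replicate 3, which stands for 2 counts, and 0 TPM in the others.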

How the results depend on the processing

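None of the counts or fold changes recomputed changed direction under the alternatives run. Counts of members called moved by more than 1.5 times only between II_PZ and I_PZ. With TPM scaling 17 were lower, and leaving out 1 library gave 2 to 19 lower and 1 to 2 higher, against 11 and 3. Of all targets, 9.56% were lower with TPM scaling. Leaving out 1 library gave 3.25% to 6.32% of all targets lower and 4.84% to 9.11% higher. In that comparison DESeq2 gave 16 lower and 4 higher, where 9.45% and 10.4% of all targets were lower and higher. Single libraries left out gave 58 to 61 lower and 11 to 15 higher in IV_PZ against III_PZ, 51 to 57 higher and 11 to 17 lower in IV_AZ_si against IV_PZ, 90 to 100 higher and 7 to 9 lower in IV_AZ_if against IV_PZ, and 69 to 79 lower and 9 to 12 higher in IV_AZ_si against IV_AZ_if. With a replicate block, 8 members were lower and 2 higher in II_PZ against I_PZ, where 6.03% and 8.71% of all targets were lower and higher. With that block Aa_G49350.h1 lost its call in IV_AZ_si against IV_PZ (edgeR adjusted p = 0.0549). The replicate numbers showed no clear pairing of the samples, and a library correlated best with its own number in at most 1 of 3 cases per comparison. The number of targets meeting the rule was 135 without II_PZ replicate 2 and 213 without II_PZ replicate 3, the extremes over single libraries; it was 127 with a pseudocount of 0.1, 105 with a minimum step of 1.5 and 231 on counts scaled per length. Short members and later levels under 1 TPM are limited by depth.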
